A study of Mus musculus with 8 samples.

Results

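Malat1 and Neat1 are long noncoding RNAs (lncRNAs) that stay in the nucleus, and Gas5, Snhg1, Snhg3, Snhg5, Snhg8 and Snhg12 are host genes of small nucleolar RNAs (snoRNAs). These 8 genes were taken by name, as mouse symbols from a table of 21757 genes and as the upper-case human symbols from tables of 60237 genes. All 8 were found in both, and all 8 passed the filter on low counts in both. The set was drawn up with values of these data known. MALAT1 was chosen by its level in the sh-Prmt1 libraries, where it was taken to be the top transcript, so its own difference there is given as a description without a test.

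Polyadenylated RNA was sequenced by a custom form of Smart-seq2, which copies RNA from its poly(A) end into full-length cDNA, in 4 groups of 2 libraries each, which make up 2 experiments. The genotype experiment set Ctnnb1-ex3 organoids of the mouse small intestine against wild-type (WT) organoids. Alleles named this way usually lack exon 3 of the gene for beta-catenin, and with it the residues whose phosphorylation leads to the protein being degraded. The Ctnnb1-ex3 cultures received Noggin at 0.1 µg/ml and EGF at 0.05 µg/ml, while the WT cultures received the same plus Wnt3a and R-spondin1. Genotype and medium therefore cannot be told apart. The knockdown experiment set hairpin RNAs directed at Prmt1 (sh-Prmt1) against scrambled ones (sh-scramble). Prmt1 makes most of the asymmetric dimethylarginine of a cell. Its labels name mouse intestinal organoids, but all 60237 gene identifiers in its files are human, so the cells behind these libraries are not established here. The sources used here give no strain, age, driver of the Ctnnb1-ex3 allele or number of clones. Nor do they say that replicates were separate cultures, so a p-value here reflects library-to-library spread that may be technical.

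MALAT1 lies in nuclear speckles, the stores of splicing factors, and is among the most abundant RNAs of many cell types. NEAT1 is the scaffold of paraspeckles, nuclear bodies built around its long isoform by proteins such as NONO and SFPQ. A snoRNA host gene is transcribed and spliced like a messenger RNA, its introns release snoRNAs that guide the modification or cleavage of ribosomal RNA, and the spliced remainder is often short-lived. Many host transcripts begin with a tract of C and T bases like that of ribosomal protein mRNAs, known as a terminal oligopyrimidine (TOP) tract, and several are removed by nonsense-mediated decay, the pathway that destroys RNAs with early stop codons. GAS5 is the textbook case of both.

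Positions are those of mm10, with the GENCODE M21 annotation. Malat1 (chr19:5795690-5802672, minus strand) and Neat1 (chr19:5824708-5845478, minus strand) are neighbours on chromosome 19. Snhg1 (chr19:8723475-8726443, plus strand) is on the same chromosome. Snhg12 (chr4:132308623-132311024, plus strand) and Snhg3 (chr4:132348014-132353686, minus strand) lie close together on chromosome 4. Gas5 is at chr1:161034422-161038539 on the plus strand, Snhg5 at chr9:88521050-88522929 on the minus strand and Snhg8 at chr3:123507552-123508404 on the minus strand. Snhg3 shares 5592 bases with Rcc1 on the same strand, and Gas5 shares 428 bases with Zbtb37 on the opposite strand. These overlaps are of whole gene spans with introns, beside 986 exon bases in Snhg3, and the overlap of exons was not measured. Snhg3 and Rcc1 share a strand, so strand could not tell their reads apart. Standard Smart-seq2 keeps no strand, so neither could it for Gas5 and Zbtb37. The Snhg3 and Gas5 counts are uncertain wherever exons are shared.

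The 3′ ends of the nuclear pair matter here because the libraries were primed on poly(A). MALAT1 and the long NEAT1 isoform are known to be cut at their 3′ ends rather than polyadenylated, and each carries a genome-encoded A-rich stretch there. The first sequence below holds bases 6634 to 6705 of the 6983-base Malat1 transcript (chr19:5795968-5796039) and the second bases 20712 to 20771 of the 20771-base Neat1 transcript (chr19:5824708-5824767), both on the minus strand of mm10. Capitals mark the A runs, of 12 bases in Malat1 and of 5 and 4 bases in Neat1.
Malat1 3′ stretch: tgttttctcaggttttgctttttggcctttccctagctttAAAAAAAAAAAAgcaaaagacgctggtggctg
Neat1 3′ end: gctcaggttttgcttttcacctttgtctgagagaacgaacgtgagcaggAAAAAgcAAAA
Both stretches hold the same 16 bases, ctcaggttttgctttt, ahead of their A runs. Encoded A runs were not confined to these stretches. The longest transcript of Snhg12 also held a run of 12 bases (460 to 471), and that of Snhg5 a run of 7 bases. Neat1's longest run, of 7 bases (9539 to 9545), lay away from its end. How much of any of these RNAs was captured through such A runs was not tested.

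The start sites of the host genes are shown because a C and T tract at the start is the family's common feature. Each line gives 20 bases before and 20 bases from the start in the RefSeq promoter table of GRCm38.p6, with the longest run of C and T in capitals. Gas5 has 2 entries there, and Neat1 has none.
Gas5, first start (chr1:161034581-161034620, plus strand): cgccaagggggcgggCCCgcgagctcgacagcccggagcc
Gas5, other start (chr1:161035146-161035185, plus strand): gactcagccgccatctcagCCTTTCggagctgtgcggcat
Snhg1 (chr19:8723467-8723506, plus strand): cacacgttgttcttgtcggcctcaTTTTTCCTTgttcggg
Snhg3 (chr4:132353667-132353706, minus strand): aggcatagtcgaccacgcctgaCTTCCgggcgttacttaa
Snhg5 (chr9:88522878-88522917, minus strand): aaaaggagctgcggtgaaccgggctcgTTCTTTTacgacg
Snhg8 (chr3:123508317-123508356, minus strand): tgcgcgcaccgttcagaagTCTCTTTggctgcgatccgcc
Snhg12 (chr4:132308658-132308697, plus strand): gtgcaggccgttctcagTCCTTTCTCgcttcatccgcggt
Malat1, for comparison (chr19:5802653-5802692, minus strand): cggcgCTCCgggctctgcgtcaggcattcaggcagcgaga
Snhg1 and Snhg12 had the longest runs, of 9 bases, and 10.7% of the 32851 promoters in the table held a run at least as long in the same window. Runs of 7 bases stood in Snhg5 and Snhg8, a length that 24.3% of promoters reached. The runs of Gas5 (6 bases, reached by 37.5% of promoters), Snhg3 (5 bases, 57.5%) and Malat1 (4 bases, 78.6%) were of common length. The first Gas5 start had a run of 3 bases, which 93.7% of promoters reached. These runs were the longest anywhere in the window, and none began exactly at the listed start. They began at transcript base 5 in Snhg1, 8 in Snhg5 and 3 in Snhg3. Those of Snhg12, Snhg8 and the other Gas5 start began 3, 1 and 1 bases before the start. A run here is a stretch of letters, not a shown TOP tract.

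The genotype libraries held 6015933 and 3683169 counts in Ctnnb1-ex3 and 4631527 and 2951887 in WT, and the knockdown libraries held between 39608007 and 53193113 rounded estimated counts. Levels below are CPM, counts scaled to a common library size with TMM factors, on which 3 counts correspond to 0.448 to 1.13 CPM in the genotype libraries and 0.0528 to 0.0808 CPM in the knockdown libraries. A call means an adjusted p under 0.05 in edgeR's quasi-likelihood test, adjusted after Benjamini and Hochberg over all genes tested, and each adjusted p below is of that kind unless another source is named. With 2 libraries per group, groups can fail to overlap without any difference between them. Whether groups overlapped is therefore given as a description only, without the share over all genes. PRMT1, the knockdown target, had 2.99 and 3.34 CPM in sh-Prmt1, against 37.0 and 34.2 CPM in sh-scramble (adjusted p = 1.09e-06). Ctnnb1 counts cannot check the allele, since they cover the whole gene. All 12 intestinal epithelial markers were above the lowest value in all 8 libraries. In Ctnnb1-ex3, 1 of the 12 was called higher and 4 lower, or 8.33% and 33.3%, beside 20.3% and 20.5% of all genes tested. The share called in either direction was 41.7%, beside 40.8% of all genes. Library totals alone called 2 lower, DESeq2 6 and the replicate block 9. The stem cell marker Lgr5 had 223 and 229 CPM in Ctnnb1-ex3, against 11.9 and 15.5 CPM in WT, and the differentiation marker Krt20 had 51.7 and 46.0 CPM in Ctnnb1-ex3, against 281 and 322 CPM in WT. Vil1 (log2 fold change -0.75) and Krt19 (-0.66) were also lower, and the part of this shift in the differences of the members was not tested. Of the leukocyte markers, Ctnnb1-ex3 replicate 2 held 110 counts of Gzma, 25 of Ptprc and 51 of Coro1a. The other 3 genotype libraries held at most 4 counts of each. Cd3e (14 counts) and Cd3g (13 counts) were also highest in Ctnnb1-ex3 replicate 2. Not all markers followed: Cd3d had 18 and 9 counts in Ctnnb1-ex3 and 8 and 10 counts in WT. Lck had 8.66 and 12.5 CPM in Ctnnb1-ex3, against 2.75 and 0.756 CPM in WT. Summed over the 15 of 16 leukocyte markers listed, the level was 25.1 and 110 CPM in Ctnnb1-ex3 and 96.1 and 17.8 CPM in WT, with Gzma at the lowest value in every library but Ctnnb1-ex3 replicate 2. Fewer cells of a type and less RNA per cell cannot be told apart in such bulk samples.

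Neat1 fell in Ctnnb1-ex3 organoids, Snhg5 and Snhg12 rose, and the other 5 members were not called. That is 3 of 8 members, or 37.5%, beside 40.8% of the 12976 genes tested, so the share called among the members was close to that of all genes. In each direction, 2 of 8 members were called higher, beside 20.3% of all genes, and 1 of 8 lower, beside 20.5%. The median log2 fold change was -0.09 over the 8 members and 0.02 over all genes tested.

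Neat1, the paraspeckle scaffold, had 162 and 186 CPM in Ctnnb1-ex3, against 293 and 371 CPM in WT. Both Ctnnb1-ex3 libraries were below both WT libraries. The level averaged 174 ± 17.2 CPM in Ctnnb1-ex3 and 332 ± 55.2 CPM in WT (SD, n = 2 each), a log2 fold change of -0.93 ± 0.18 (SE, adjusted p = 0.00572), or 1.91-fold lower. Neat1 was called under each of the 13 alternatives run, with log2 fold changes between -1.12 and -0.69. Without Ctnnb1-ex3 replicate 2, the library with the Gzma, Ptprc and Coro1a counts given above, its log2 fold change was -1.04. In the authors' deposited table the log2 fold change of Neat1 was -0.93 (adjusted p = 5.58e-07).

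Malat1, the speckle RNA, was the second most counted gene in Ctnnb1-ex3 replicate 1 with 4707 counts and the most counted in replicate 2 with 3515. It ranked 4 in both WT libraries, with 3847 and 2932 counts. Those ranks rest on small margins, because in this table the most counted gene of a library took only 0.0903% to 0.172% of its counts. Malat1 had 703 and 898 CPM in Ctnnb1-ex3, against 880 and 1109 CPM in WT. The higher Ctnnb1-ex3 library lay just above the lower WT library, so the groups overlapped, and the log2 fold change of -0.31 ± 0.23 (SE, n = 2 each) was not called (adjusted p = 0.31).

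Snhg5, which hosts Snord50a and Snord50b, had 88.1 and 106 CPM in Ctnnb1-ex3, against 59.7 CPM in each WT library. The groups did not overlap. Its log2 fold change was 0.70 ± 0.15 (SE, n = 2 each, adjusted p = 0.00812), or 1.62-fold higher. Snhg12, which hosts Snora16a, Snora44, Snora61 and Snord99, had 53.5 and 47.2 CPM in Ctnnb1-ex3, against 33.0 and 25.7 CPM in WT. Again both Ctnnb1-ex3 libraries were above both WT libraries. The log2 fold change was 0.77 ± 0.22 (SE, n = 2 each, adjusted p = 0.0254), or 1.71-fold higher. Neither call held with a single WT library. Leaving out WT replicate 1 gave Snhg5 a log2 fold change of 0.67 (adjusted p = 0.0814) and Snhg12 of 0.94 (adjusted p = 0.0547). Leaving out WT replicate 2 gave Snhg5 0.68 (adjusted p = 0.0786) and Snhg12 0.60 (adjusted p = 0.241), so the fold of Snhg5 was about as large in both. DESeq2's Wald test did not call Snhg12 (log2 fold change 0.75, adjusted p = 0.0542). In the authors' deposited table Snhg5 had a log2 fold change of 0.69 (adjusted p = 0.0196) and Snhg12 of 0.77 (adjusted p = 0.0624).

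The other 4 host genes were not called between the genotypes. Gas5, which carries many box C/D snoRNAs, had 209 and 267 CPM in Ctnnb1-ex3, against 207 and 247 CPM in WT, a log2 fold change of 0.07 ± 0.19 (SE, adjusted p = 0.795). Snhg1, host of Snord22 and its relatives, had 81.7 and 125 CPM in Ctnnb1-ex3, against 104 and 126 CPM in WT. These 2 genes varied as much between replicates as between genotypes. Snhg3, host of Snora73a and Snora73b, had 67.2 and 85.0 CPM in Ctnnb1-ex3, against 74.1 and 86.6 CPM in WT. Snhg8, host of Snora24, had 72.8 and 85.5 CPM in Ctnnb1-ex3, against 80.8 and 88.1 CPM in WT. In all 4 genes the groups overlapped, and the log2 fold changes of Snhg1 (-0.16, adjusted p = 0.568), Snhg3 (-0.08, adjusted p = 0.726) and Snhg8 (-0.10, adjusted p = 0.627) were not called either.

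**Figure D1:**
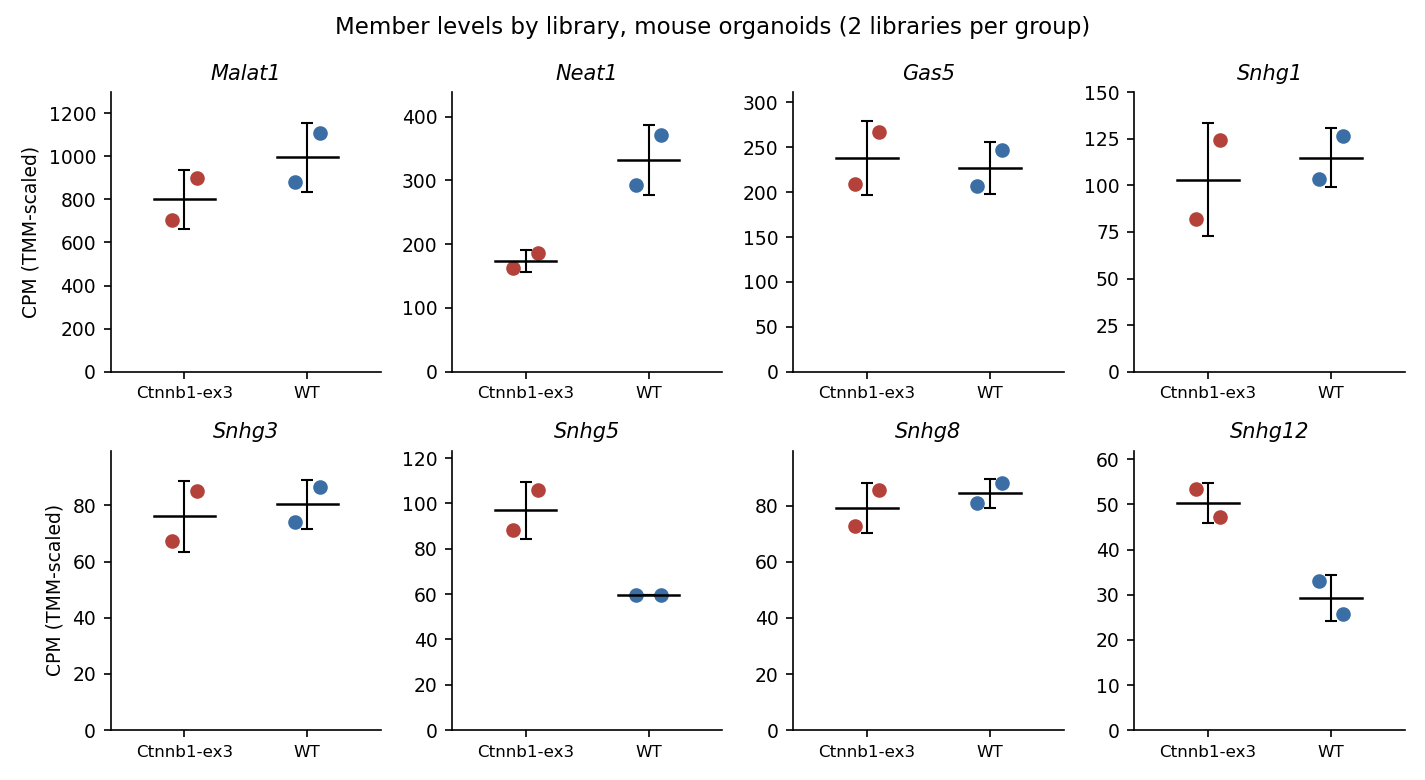
CPM of the 8 members in each genotype library (points, 2 per group), with the group mean (line) and SD (bars), on linear axes that start at 0 and differ between panels. Neat1 sits at 162 and 186 CPM in Ctnnb1-ex3 below 293 and 371 CPM in WT, while Snhg5 and Snhg12 sit above WT and the other 5 overlap.

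Small directions in this table moved with the scaling. Within each group, replicate 1 over replicate 2 was not a constant ratio: it was 1.36 in Ctnnb1-ex3 and 1.42 in WT for the decile of genes with the most counts per kilobase of exon, and 1.83 in Ctnnb1-ex3 and 1.74 in WT for the middle decile. Malat1, at the 97.6th percentile of counts per kilobase, had ratios of 1.34 in Ctnnb1-ex3 and 1.31 in WT. Snhg8, Snhg3 and Gas5 also lay above the 90th percentile, Neat1 at the 50.5th and Snhg12 at the 64.8th. An offset that follows this density, chosen after seeing the data, gave Malat1 a log2 fold change of 0.21 (adjusted p = 0.032) and Gas5 0.45 (adjusted p = 0.00698), both then called higher in Ctnnb1-ex3. With it, Neat1 was at -0.98 and Snhg12 at 0.83, and these and Snhg5 were called in the same direction as with TMM. The part of read density in the Malat1 and Gas5 differences was otherwise not tested, so no direction is given for them between the genotypes.

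**Figure D2:**
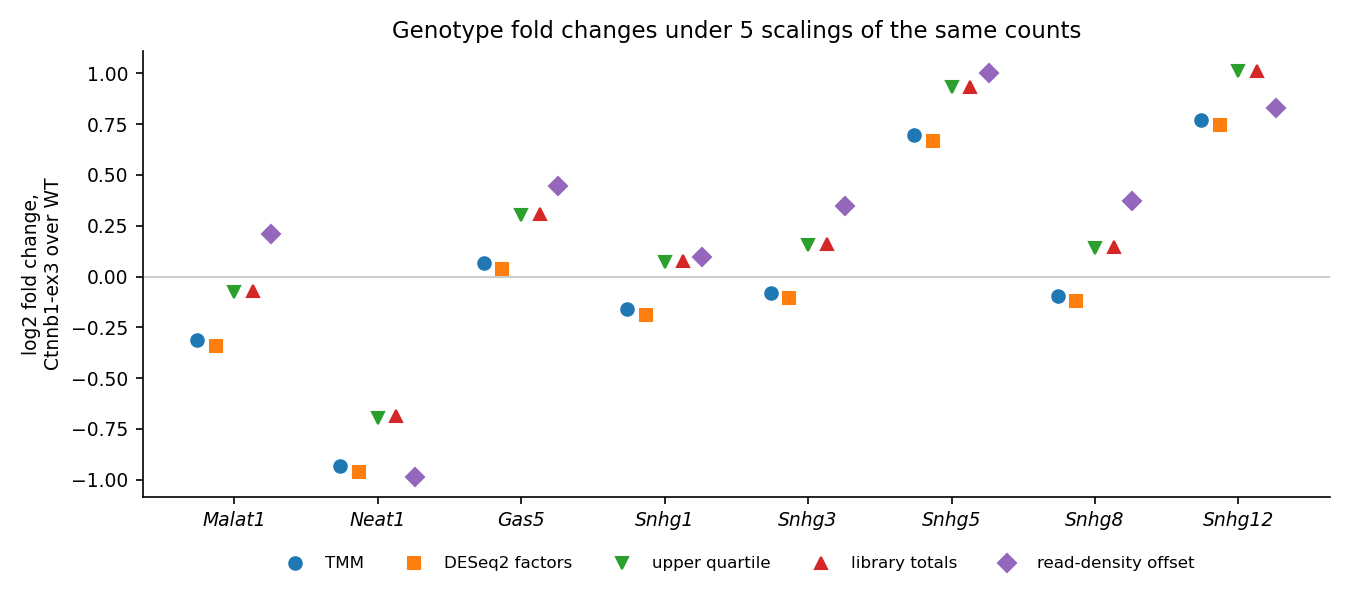
Log2 fold change of each member, Ctnnb1-ex3 over WT, under 5 scalings of the same counts (one marker type per scaling). Neat1 stays below 0 and Snhg5 and Snhg12 above 0 in all 5, whereas Malat1 lies at -0.31 with TMM and 0.21 with the read-density offset, and Snhg1, Snhg3 and Snhg8 also change sign.

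The promoters of the 2 members that rose in Ctnnb1-ex3 are printed because beta-catenin acts through TCF and LEF proteins, whose known sites contain CTTTG. The windows run from 250 bases before to 50 bases after the RefSeq start (GRCm38.p6), with CTTTG, or CAAAG for the other strand, in capitals.
Snhg5 promoter (chr9:88522848-88523147, minus strand): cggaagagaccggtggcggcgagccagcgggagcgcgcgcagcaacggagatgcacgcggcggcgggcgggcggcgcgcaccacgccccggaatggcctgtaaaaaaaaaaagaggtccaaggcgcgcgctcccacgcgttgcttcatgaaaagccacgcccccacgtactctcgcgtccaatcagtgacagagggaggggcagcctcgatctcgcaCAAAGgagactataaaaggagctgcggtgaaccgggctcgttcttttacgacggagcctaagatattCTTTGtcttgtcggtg
Snhg12 promoter (chr4:132308428-132308727, plus strand): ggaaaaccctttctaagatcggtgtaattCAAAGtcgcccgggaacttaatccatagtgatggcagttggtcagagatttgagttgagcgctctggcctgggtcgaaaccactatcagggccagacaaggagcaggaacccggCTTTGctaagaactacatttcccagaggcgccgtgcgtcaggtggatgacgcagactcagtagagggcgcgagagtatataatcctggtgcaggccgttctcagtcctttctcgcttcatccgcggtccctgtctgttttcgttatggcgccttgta
Each holds 2 matches, 1 on each strand. The letters are common: 53.9% of the 32851 promoters hold at least 1 match, and so does the promoter of each of the 7 members with an entry, including those that were not called. Snhg1 has the most, with 3. A match is a run of letters, not a shown binding site.

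In the sh-Prmt1 libraries NEAT1 and GAS5 rose, SNHG3, SNHG8 and SNHG12 fell, and SNHG1 and SNHG5 were not called. Of the 7 members tested there, 5 were called, or 71.4%, beside 40.9% of the 18452 genes tested. By direction, 2 of 7 were called higher, beside 20.5% of all genes, and 3 of 7 lower, beside 20.4%. The members were chosen with results known, so nothing is read from this share.

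MALAT1 was the most counted gene in both sh-Prmt1 libraries, with 422110 and 703914 estimated counts, or 1.07% and 1.32% of the library. The next gene was TMSB4X, an actin-binding peptide's gene, with 410461 and 638861. In sh-scramble MALAT1 ranked 4 and 8, with 326797 and 264915 estimated counts, or 0.822% and 0.577%. Its level was 9848 and 12379 CPM in sh-Prmt1, against 8803 and 6240 CPM in sh-scramble. Both sh-Prmt1 libraries were above both sh-scramble libraries, but the 2 replicates of each group stood further apart than the nearest libraries of the different groups. The mean was 11113 ± 1790 CPM in sh-Prmt1 and 7521 ± 1812 CPM in sh-scramble (SD, n = 2 each), a log2 fold change of 0.56, or 1.48-fold higher, given without a test. It was 0.32 without sh-scramble replicate 2 and 0.78 without sh-scramble replicate 1.

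The rank of MALAT1 depended on the unit. In TPM, which divides by transcript length, it had 6895 and 8087 in sh-Prmt1, ranking 14 and 10, and 5704 and 4252 in sh-scramble, ranking 24 and 38. The top gene by mean TPM was MT-TQ, a mitochondrial tRNA gene, in both groups, followed by TMSB4X. MT-TS1, another mitochondrial tRNA gene, came next in sh-Prmt1, and UQCRQ, a subunit of a respiratory complex, came next in sh-scramble. MALAT1 was therefore the top gene of the sh-Prmt1 libraries by estimated counts and not by TPM. Its TPM rests on gene lengths of 827 and 811 bases in the sh-Prmt1 files and 778 and 770 bases in the sh-scramble files, short beside the 6983 bases of the mouse transcript.

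NEAT1 rose most among the members, with 182 and 220 CPM in sh-Prmt1, against 97.0 and 74.4 CPM in sh-scramble. The groups were well apart. The log2 fold change was 1.23 ± 0.14 (SE, n = 2 each, adjusted p = 0.000111), or 2.35-fold higher. In TPM, NEAT1 had 15.3 and 15.5 in sh-Prmt1, against 7.19 and 8.57 in sh-scramble, a difference of 0.96 in log2(TPM + 0.1), with gene lengths in the files that ran from 4598 to 7666 bases between libraries. The authors' deposited table gave a log2 fold change of 0.72 for NEAT1 (adjusted p = 1.43e-07) and of 0.34 for MALAT1. Both were below the values fitted here. The fit here used estimated counts without correction for gene length, and TPM carries no TMM factors. Effective lengths, by which TPM divides, were 8205 and 9045 bases for NEAT1 in sh-Prmt1, against 7556 and 5083 bases in sh-scramble. For MALAT1 they were 986 and 978 bases in sh-Prmt1, against 864 and 859 bases in sh-scramble. The part of gene length in these differences was not tested. By TPM, a level per length, MALAT1, which was chosen by its level, stood far above NEAT1 in every library. The size of that gap depends on the lengths used, which were far shorter for MALAT1. In estimated counts MALAT1 had 422110 and 703914 in sh-Prmt1, against 7783 and 12517 for NEAT1. In sh-scramble it had 326797 and 264915, against 3602 and 3158 for NEAT1.

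GAS5, whose spliced RNA is a classical target of nonsense-mediated decay, had 337 and 316 CPM in sh-Prmt1, against 217 and 222 CPM in sh-scramble. Replicates were close and the groups did not overlap. The log2 fold change was 0.57 ± 0.09 (SE, n = 2 each, adjusted p = 0.000651), or 1.49-fold higher. The difference in log2(TPM + 0.1), which has no TMM factors, was 0.83. In TPM, GAS5 had 423 and 373 in sh-Prmt1, against 215 and 234 in sh-scramble. Among the members it stood next below MALAT1 in sh-Prmt1, while in sh-scramble it overlapped SNHG8, which had 159 and 179 TPM in sh-Prmt1, against 237 and 226 TPM in sh-scramble. SNHG5 came below these (132 and 140 TPM in sh-Prmt1, against 110 and 113 TPM in sh-scramble), followed by SNHG1 (57.5 and 51.9 TPM in sh-Prmt1, against 38.1 and 40.8 TPM in sh-scramble). NEAT1, SNHG12 and SNHG3 were lowest, all between 4.40 and 16.8 TPM.

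SNHG12 had 9.17 and 9.41 CPM in sh-Prmt1, against 16.2 and 16.4 CPM in sh-scramble. Its replicates differed by far less than its groups, with a log2 fold change of -0.81 ± 0.11 (SE, n = 2 each, adjusted p = 0.000365), or 1.75-fold lower. SNHG8 had 77.4 and 92.3 CPM in sh-Prmt1, against 125 and 117 CPM in sh-scramble (log2 fold change -0.51 ± 0.10, SE, adjusted p = 0.00317). SNHG3 had 16.5 and 14.2 CPM in sh-Prmt1, against 21.7 and 20.1 CPM in sh-scramble (log2 fold change -0.45 ± 0.11, SE, adjusted p = 0.00994). None of these 3 overlapped between the groups. In log2(TPM + 0.1), which has no TMM factors, the falls were smaller, at -0.47 for SNHG12, -0.46 for SNHG8 and -0.21 for SNHG3. The call of SNHG3 was lost without sh-Prmt1 replicate 2 (-0.36, adjusted p = 0.051) and with library totals alone (-0.24, adjusted p = 0.122).

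SNHG1 and SNHG5 were not called. SNHG1 had 85.2 and 81.2 CPM in sh-Prmt1, against 69.7 and 72.9 CPM in sh-scramble, a log2 fold change of 0.22 ± 0.08 (SE, adjusted p = 0.0592). Its groups did not overlap, and library totals alone (0.43, adjusted p = 0.00247) and upper-quartile factors (0.24, adjusted p = 0.0498) called it higher. SNHG5 had 75.4 and 90.5 CPM in sh-Prmt1, against 79.4 and 73.5 CPM in sh-scramble. Here the groups overlapped, the log2 fold change was 0.12 (adjusted p = 0.40), and it was -0.04 without sh-Prmt1 replicate 2. With library totals alone SNHG5 was called higher (0.33, adjusted p = 0.0273).

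**Figure D3:**
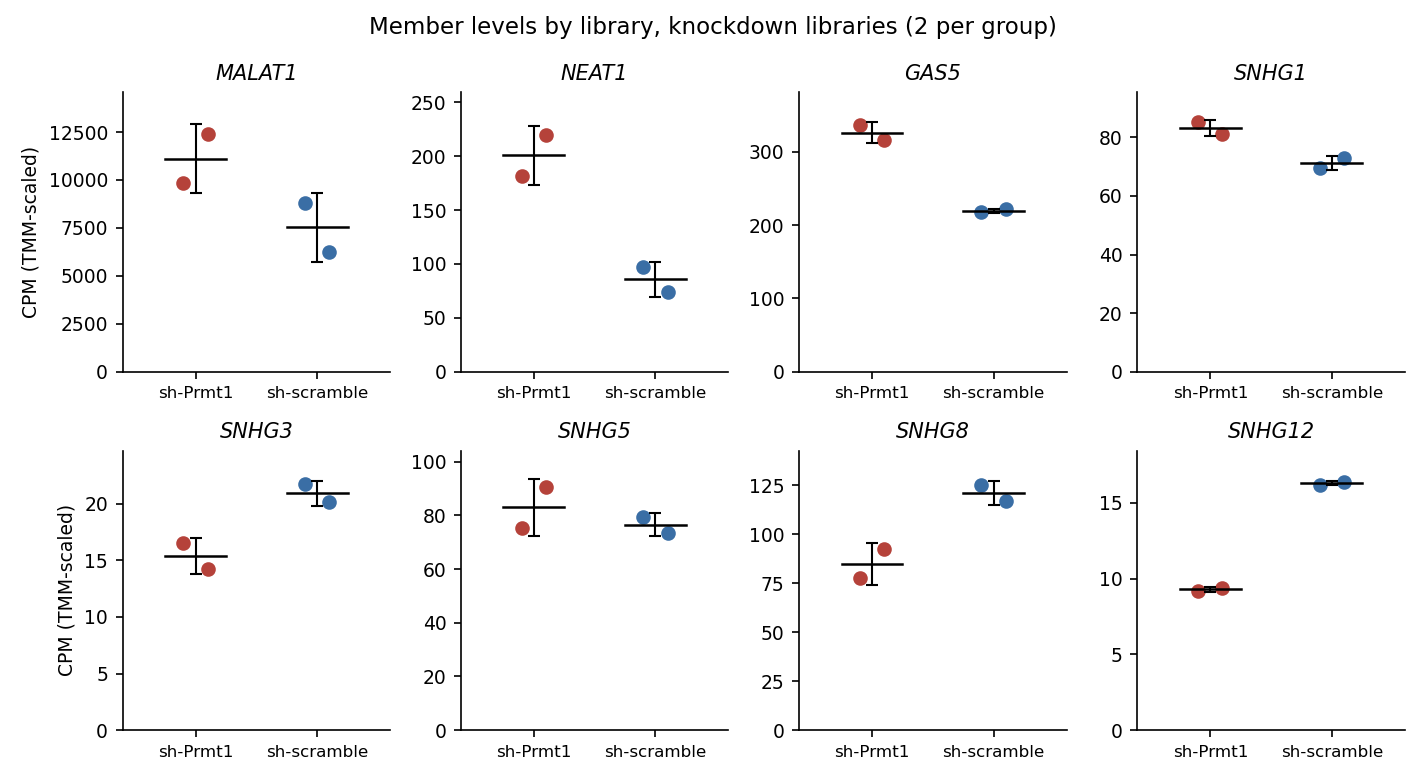
CPM of the 8 members in each knockdown library (points, 2 per group), with the group mean (line) and SD (bars), on linear axes that start at 0 and differ between panels. NEAT1 and GAS5 sit higher in sh-Prmt1, SNHG3, SNHG8 and SNHG12 lower, and MALAT1 is at 9848 and 12379 CPM in sh-Prmt1 against 8803 and 6240 CPM in sh-scramble.

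Set side by side, the experiments gave opposite signs to the 2 members called in both, NEAT1 and SNHG12. NEAT1 had a log2 fold change of -0.93 for Ctnnb1-ex3 over WT and 1.23 for sh-Prmt1 over sh-scramble. SNHG12 had 0.77 for Ctnnb1-ex3 over WT and -0.81 for sh-Prmt1 over sh-scramble. With TMM, Gas5, Snhg3, Snhg5 and Snhg8 had the same sign in both experiments. Malat1 and Snhg1 had opposite signs, but Snhg1 was called in neither and MALAT1 had no test in the knockdown. The genotype signs of Malat1, Snhg1, Snhg3 and Snhg8 changed with the scaling. Snhg5 was called in the genotype experiment alone, and GAS5, SNHG3 and SNHG8 in the knockdown experiment alone. The libraries are of mouse genes in the first and human genes in the second, with no shared samples, and the differences between the experiments were not tested.

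**Figure D4:**
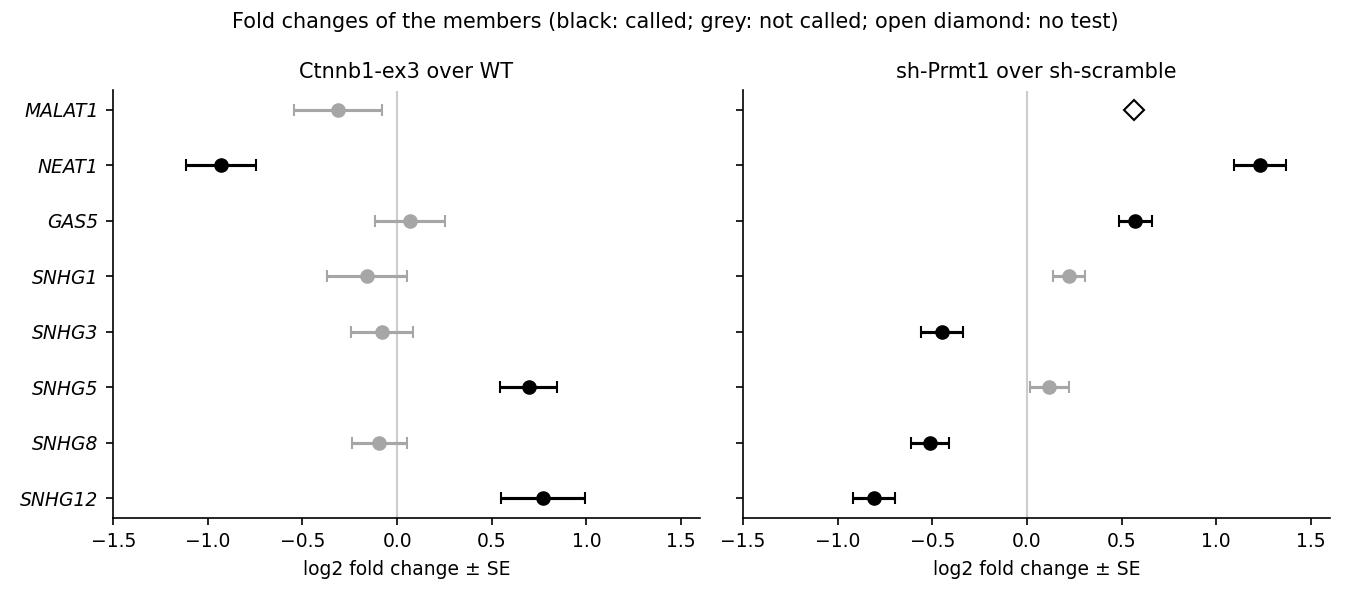
Log2 fold changes of the members with their SE, Ctnnb1-ex3 over WT on the left and sh-Prmt1 over sh-scramble on the right (black, called; grey, not called; open diamond, no test), named by the human symbols in both. NEAT1 lies at -0.93 on the left and 1.23 on the right, and SNHG12 at 0.77 on the left and -0.81 on the right.

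Among other snoRNA host lncRNAs the genotype table held 13 of the 21 listed, and 3 were called higher in Ctnnb1-ex3 and 0 lower, with a median log2 fold change of 0.35 beside 0.02 over all genes. The 3 make up 23.1% of the list, near the 20.3% of all genes called higher and below the 40.8% called in either direction. At an unadjusted p under 0.05 the counts were 6 higher and 0 lower, and DESeq2 called 2 higher and 0 lower. Snhg18 (57.7 and 72.5 CPM in Ctnnb1-ex3, against 27.9 and 23.8 CPM in WT) had a log2 fold change of 1.32 (adjusted p = 0.00253). Snhg17, with 120 and 114 CPM in Ctnnb1-ex3 against 61.3 and 50.7 CPM in WT, had 1.06 (adjusted p = 0.00132), and Dancr 0.70 (adjusted p = 0.0136). The count of 3 became 2 without WT replicate 1, 2 without WT replicate 2, 7 without Ctnnb1-ex3 replicate 1, 5 without Ctnnb1-ex3 replicate 2, 7 with library totals alone, 8 with upper-quartile factors and 5 with the read-density offset.

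In the knockdown all 21 other hosts were tested, and 9 were called higher and 7 lower in sh-Prmt1, or 76.2% in either direction, beside 40.9% of all genes. SNHG9 fell to 63.7 and 68.6 CPM in sh-Prmt1, against 195 and 204 CPM in sh-scramble (log2 fold change -1.59, adjusted p = 5.48e-06). SNHG16 stood at 177 and 175 CPM in sh-Prmt1, against 78.6 and 87.3 CPM in sh-scramble (log2 fold change 1.08, adjusted p = 2.32e-05). Host lncRNAs thus moved in both directions after the knockdown. SNHG29 (0.70) and SNHG17 (0.50) also rose, and SNHG19 (-1.21) and SNHG30 (-0.98) also fell.

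Of 10 other named lncRNAs tested in the genotype table, 4 were called higher and 3 lower in Ctnnb1-ex3, beside 20.3% and 20.5% of all genes. Pvt1, the lncRNA gene beside Myc, had 34.5 and 27.8 CPM in Ctnnb1-ex3, against 2.29 and 6.81 CPM in WT (log2 fold change 2.87, adjusted p = 0.00328). Mir22hg, the host gene of miR-22, had 9.26 and 13.8 CPM in Ctnnb1-ex3, against 80.6 and 61.3 CPM in WT (log2 fold change -2.65, adjusted p = 0.000404). Miat (3.12) and the imprinted Meg3 (2.19) rose at low levels, and Tug1 (-0.74) and Norad (-0.51) fell. Kcnq1ot1, an imprinted antisense RNA named after its values were seen, had 811 and 792 CPM in Ctnnb1-ex3, against 407 and 415 CPM in WT (log2 fold change 0.96, adjusted p = 0.00512), and was the most counted gene of Ctnnb1-ex3 replicate 1. The counts were 2 higher and 1 lower without WT replicate 1, and 2 and 2 without WT replicate 2.

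After the knockdown, 3 of 11 other named lncRNAs were called higher in sh-Prmt1 and 1 lower, or 36.4% in either direction, beside 40.9% of all genes. MIR22HG (0.85), MIR17HG (0.81) and KCNQ1OT1 (0.53) rose, and DLEU2 (-0.60) fell. The count was 1 in each direction without sh-Prmt1 replicate 2 and also without sh-scramble replicate 2, and with library totals alone it was 5 higher and 1 lower.

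The proteins that work with the members were counted as lists. Of 15 paraspeckle proteins, 1 was called higher in Ctnnb1-ex3 and 0 lower, beside 20.3% and 20.5% of all genes: Smarca4, a chromatin remodeller, with 192 and 214 CPM in Ctnnb1-ex3, against 95.0 and 97.6 CPM in WT (log2 fold change 1.08, adjusted p = 0.00112). At an unadjusted p under 0.05 there were 2 higher and 1 lower, and DESeq2 called 1 in each direction. Library totals alone, upper-quartile factors and the read-density offset each called 6 higher, the replicate block 4 higher and 1 lower, and the fit without Ctnnb1-ex3 replicate 1 gave 3 higher and 0 lower and that without Ctnnb1-ex3 replicate 2 gave 2 in each direction. In sh-Prmt1, where NEAT1 itself rose, 1 of 14 was called higher and 6 lower, or 7.14% and 42.9%, beside 20.5% and 20.4% of all genes. The median log2 fold change was -0.23 beside 0.03 over all genes. The RNA-binding proteins TAF15 (-0.72) and EWSR1 (-0.56) fell, and HNRNPH3 rose (0.33). With library totals alone the counts were 5 higher and 3 lower.

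Nuclear speckle proteins were called in both directions between the genotypes, 2 of 12 higher and 2 lower in Ctnnb1-ex3, or 33.3% in all, beside 40.8% of all genes. Acin1 (0.61) and Pnn (0.40) rose, and the splicing factors Srsf5 (-0.69) and Srsf2 (-0.60) fell. Without WT replicate 1 the counts were 0 higher and 1 lower, without WT replicate 2 they were 0 in each direction, without Ctnnb1-ex3 replicate 1 they were 2 higher and 0 lower, and with the read-density offset 7 higher and 1 lower. In sh-Prmt1, 1 of 12 was called higher and 8 lower, or 66.7% lower, beside 20.4% of all genes. SRSF6 had 299 and 242 CPM in sh-Prmt1, against 454 and 723 CPM in sh-scramble (log2 fold change -1.12, adjusted p = 0.0013). SRSF2 (-1.07) and SON (-0.75), a scaffold of speckles, also fell, and ACIN1 (0.37) rose. With library totals alone the counts were 2 higher and 6 lower.

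Proteins that build snoRNPs, the particles of snoRNAs and proteins, were tested in full in both experiments. In Ctnnb1-ex3, 8 of 17 were called higher and 0 lower, or 47.1%, beside 20.3% of all genes, with a median log2 fold change of 0.42. At an unadjusted p under 0.05 there were 10 higher and 0 lower, and DESeq2 called 5 higher and 0 lower. Rpap3, a subunit of the R2TP assembly chaperone, averaged 70.9 ± 14.3 CPM in Ctnnb1-ex3 and 28.2 ± 4.52 CPM in WT (SD, n = 2 each; log2 fold change 1.32, adjusted p = 0.00286). Naf1, an assembly factor of H/ACA snoRNPs, averaged 66.6 ± 4.66 CPM in Ctnnb1-ex3 and 26.6 ± 2.26 CPM in WT (SD, n = 2 each; log2 fold change 1.32, adjusted p = 0.00153). Gar1, a core protein of the same particles, also rose (1.02). The count was 4 without WT replicate 1 and 4 without WT replicate 2.

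In sh-Prmt1, 0 of 17 snoRNP proteins were called higher and 8 lower, or 47.1% lower, beside 20.4% of all genes, with a median log2 fold change of -0.27. At an unadjusted p under 0.05 there were 0 higher and 10 lower, and DESeq2 called 0 higher and 8 lower. RPAP3 had 33.6 and 36.8 CPM in sh-Prmt1, against 123 and 119 CPM in sh-scramble (log2 fold change -1.78, adjusted p = 4.47e-06). NOP58 (-0.72) and NOP56 (-0.59), core proteins of box C/D snoRNPs, also fell. With library totals alone the counts were 1 higher and 4 lower.

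Of 16 nonsense-mediated decay factors, 4 were called higher and 1 lower in Ctnnb1-ex3, or 31.2% in either direction, beside 40.8% of all genes. Smg9 (0.98), the helicase gene Upf1 (0.62) and Upf3b (0.50) rose, and Pnrc2 (-0.67) fell. DESeq2 called 1 in each direction, the fit without WT replicate 1 gave 1 higher and 0 lower and that without WT replicate 2 called 0 in either direction. In sh-Prmt1, 4 of 16 were called higher and 5 lower, or 56.2% in either direction, beside 40.9% of all genes. UPF1 (0.43) and SMG1 (0.30) rose, and MAGOH (-1.12), UPF2 (-0.71) and XRN1 (-0.59) fell. The counts were 2 higher and 5 lower without sh-Prmt1 replicate 2 and without sh-scramble replicate 1, and 1 higher and 5 lower without sh-scramble replicate 2.

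Ribosomal protein mRNAs, which share the TOP tract with many hosts, were not called between the genotypes: edgeR called 0 of 79 in either direction, with 0 at an unadjusted p under 0.05, and DESeq2 called 0. Their median log2 fold change was -0.36, and with the read-density offset it was 0.13, with 10 called higher. The replicate block called 64 lower and the fit without Ctnnb1-ex3 replicate 2 called 68 lower. Of 17 other TOP mRNAs edgeR called 0, with 0 at an unadjusted p under 0.05, and DESeq2 called 0, at a median of -0.27 that became 0.22 with the read-density offset, which called 4 higher and 0 lower. For these the replicate block called 1 higher and 10 lower, and the fit without Ctnnb1-ex3 replicate 2 called 1 higher and 7 lower. No direction is given for either list.

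In sh-Prmt1, 11 of 79 ribosomal protein genes were called higher and 30 lower, or 13.9% and 38.0%, beside 20.5% and 20.4% of all genes, with a median log2 fold change of -0.16 that became 0.05, with 25 higher and 16 lower, with library totals alone. RPL5 had 1481 and 1492 CPM in sh-Prmt1, against 3410 and 3435 CPM in sh-scramble (log2 fold change -1.20, adjusted p = 1.88e-05). RPS29 (-0.93) and RPL39 (-0.85) also fell, and RPSA (0.55), RPL29 (0.43) and RPL28 (0.41) rose. The counts were 2 higher and 19 lower without sh-Prmt1 replicate 1, 10 and 19 without sh-Prmt1 replicate 2, and 2 and 35 without sh-scramble replicate 1. Many of these genes have processed pseudogenes that can share reads. Of 17 other TOP mRNAs, 2 were called higher and 4 lower, or 35.3% in either direction, beside 40.9% of all genes. They include EIF3F (0.52), EEF1G (0.51), EIF3E (-1.06) and NPM1 (-0.58). The counts were 2 in each direction without sh-Prmt1 replicate 1, without sh-Prmt1 replicate 2, without the filter on low counts, with the replicate block and with upper-quartile factors, and 8 higher and 2 lower with library totals alone.

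**Figure D5:**
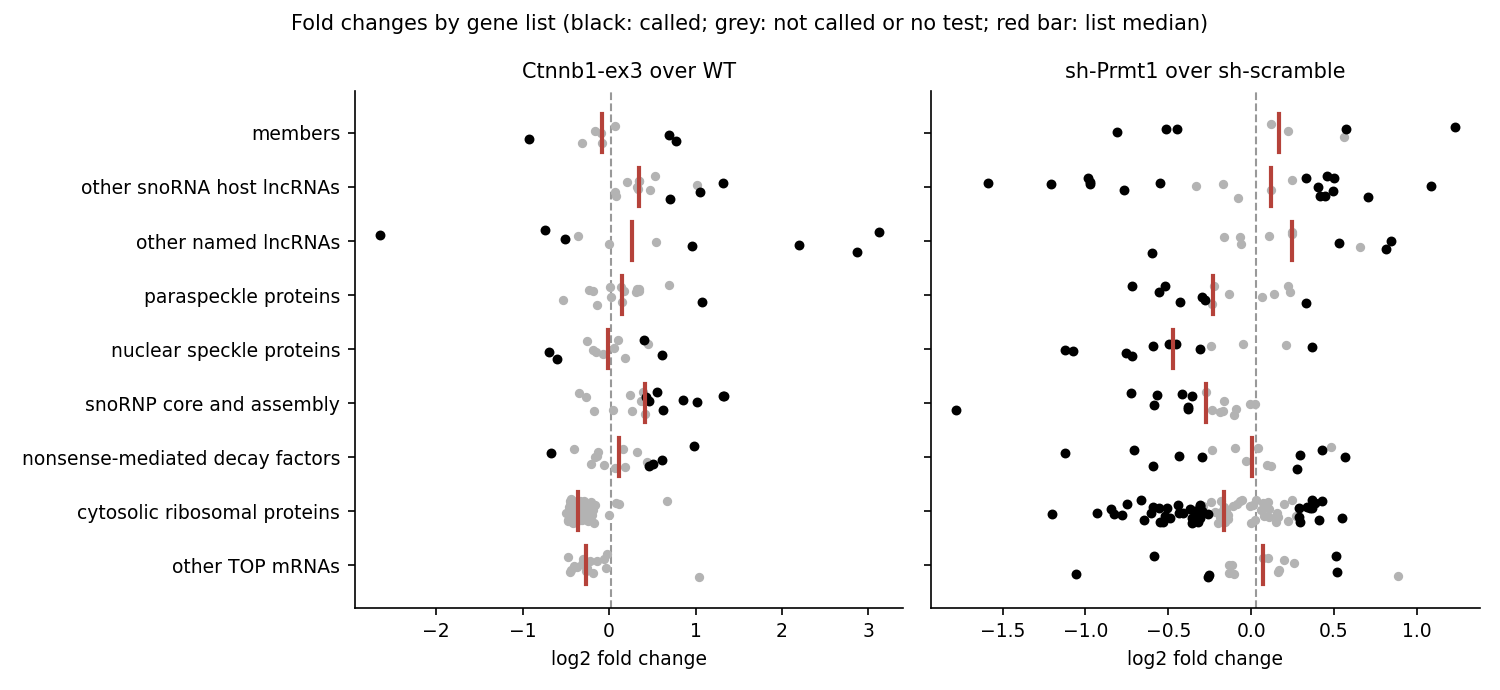
Log2 fold changes of the tested genes of each list (black, called; grey, not called or without a test; red bar, list median; dashed line, median of all genes tested), Ctnnb1-ex3 over WT on the left and sh-Prmt1 over sh-scramble on the right. The snoRNP list has its median at 0.42 on the left and -0.27 on the right, and the ribosomal protein genes cluster near -0.36 on the left without a call.

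The snoRNAs themselves were at or near the limit of these polyadenylated libraries. Only Snord47 in Gas5, Snord22 in Snhg1 and the 4 snoRNAs of Snhg12 were listed in the genotype table, with at most 42 counts in any library. Each overlaps an annotated exon of its host, so snoRNA and host reads cannot be told apart. Of 27 human snoRNAs listed for the hosts, 13 matched exactly 1 identifier, 7 of these were at 0 in all 4 libraries, and the highest estimated count was 18.

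By pattern over the 4 libraries, the genes most like the mean profile of the 6 host members in the genotype table were 4930511M06Rik, Tacc2 and Alox8, with root mean square differences of 0.0166, 0.0185 and 0.0188 log2 CPM among 12771 genes searched. In the knockdown they were NDUFS4, ASCC3 and PHGR1, with 0.00766, 0.00927 and 0.00928 among 18234 genes. The host members differ among themselves, so the mean profile is a description only.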

How the data were processed

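For the genotype experiment the authors deposited whole-number counts per mouse gene symbol. No count was below 1, and the tool behind them is not given in the sources used here. For the knockdown experiment, per the file headers, the authors deposited gene-level Salmon output with estimated counts, TPM and gene lengths. The submitters' processing notes name Salmon, DESeq2 and mm10 without roles. The authors also deposited tables of log2 fold changes and adjusted p-values for each experiment, quoted only where named. Groups and replicate numbers came from the sample titles.

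Estimated counts were rounded and not corrected for gene length. The experiments were fitted separately in edgeR 4.0.16 (R 4.3.3) after filterByExpr and TMM, by the quasi-likelihood test (glmQLFit, glmQLFTest; two-sided). The filter left 12976 and 18452 genes. TMM takes most genes as unchanged, so every fold is relative to them. Biological coefficients of variation were 0.171 (genotype) and 0.105 (knockdown). No 2 replicates looked like 1 library: the chi-square of their counts was 3.75 to 29.9 per degree of freedom. Differences in TPM are on the log2(TPM + 0.1) scale, which understates changes of low genes. They carry no TMM factors, so they and the fitted folds are scaled differently. The scripts were tested on simulated data.

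The members and gene lists were chosen with earlier results of these data known, so no list was tested as a set. From each list at most the 3 largest called rises and falls are named. Some genes that this rule names are not reported here. Positions and A runs came from GENCODE M21, start sites and promoters from RefSeq (GRCm38.p6). No human sequence is shown. Alternatives were other factors, no filter, DESeq2 1.42.0, limma-voom (limma 3.58.1), a replicate block, each library left out, 1 taken from every genotype count, MALAT1 left out of library sizes and, added later, an offset that follows read density. Depth limits cover counting error only.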

Additional observations from a re-analysis of the deposited data

How the results depend on the processing

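Of the genotype calls over all genes (5291, with 2637 higher and 2654 lower in Ctnnb1-ex3), leaving out 1 library gave 2634 to 7757 (higher 1110 to 4008, lower 1524 to 3749), lowest without a WT library. Library totals alone gave 1743 lower and upper-quartile factors 1752, with 67.4% and 68.0% of calls higher, against 49.8% with TMM. In the knockdown, library totals alone gave 5757 higher and 2444 lower, or 70.2% higher against 50.2%. Library totals moved the median log2 fold change of all genes to 0.26 in the genotype and 0.24 in the knockdown experiment. The read-density offset called 5111 of 12872 genes tested between the genotypes, against 5291 of 12976 with TMM. Among the members it called 62.5%, against 37.5% with TMM. Of the members, 3 were called between the genotypes, 1 to 4 with a library left out (1 without either WT library) and 5 with the read-density offset, which was chosen after seeing the data.

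Directions that changed were all of members not called with TMM. Library totals alone gave Snhg1 0.078, Snhg3 0.16 and Snhg8 0.15, upper-quartile factors 0.073, 0.16 and 0.14, and the read-density offset 0.097, 0.35 and 0.37, with Malat1 at 0.21. With 1 library left out, log2 fold changes ran from -0.12 to 0.22 for Gas5, -0.48 to 0.11 for Snhg1, -0.25 to 0.081 for Snhg3, -0.21 to 0.012 for Snhg8 and -0.036 to 0.23 for SNHG5. Snhg1 was called without Ctnnb1-ex3 replicate 2 (-0.48, adjusted p = 0.00538, edgeR). The cause was not tested.

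The labels name no batch for samples with the same replicate number. The correlation over genes of their deviations was 0.0706 in the genotype and -0.0515 in the knockdown experiment. In both genotype groups, though, replicate 1 over replicate 2 was lower in the densest decile of genes than in the middle decile. It was 1.36 against 1.83 in Ctnnb1-ex3 and 1.42 against 1.74 in WT. Whether same-numbered samples shared a batch was not tested. With the replicate block the calls numbered 6484 in the genotype and 7113 in the knockdown experiment, and Malat1 was called (-0.31, adjusted p = 0.00372, edgeR). NEAT1, GAS5, SNHG8 and SNHG12 were called under every knockdown alternative with a test. None of these alternatives corrected for gene length. With 2 libraries per group, a member's difference that was not called may still exist.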
